A study of Mus musculus with 18 samples.

Results

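The 10 genes described here are the core genes of the mammalian circadian clock. They comprise the transcriptional activators Clock and Arntl (BMAL1), the period genes Per1, Per2 and Per3, the cryptochromes Cry1 and Cry2, the nuclear receptors Nr1d1 (REV-ERB alpha) and Nr1d2 (REV-ERB beta), and the output factor Dbp. Their rows were taken by gene symbol among the 25209 gene names listed for every library, with earlier results of these data known. All 10 were found in each of the 18 libraries, none was listed at 0 in any library, and all 10 passed the filter on low values that left 12695 genes for testing.

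Polyadenylated RNA was sequenced from 3T3-L1, an established mouse fibroblast line of embryonic origin whose cells become fat cells when given inducers. The 18 libraries form 6 groups of 3, named Control, MCE1, MCE2, Day4, Day6 and Day8. According to the labels, cells held 2 days past confluence were given 10 µg/mL insulin, 0.25 µM dexamethasone (a glucocorticoid) and 0.5 mM IBMX (which blocks phosphodiesterases and so raises cAMP) during 48 h, all in medium with serum. Afterwards they were kept in medium with 5 µg/mL insulin that was renewed every 2 days. MCE1 and MCE2 carry no hour in the labels, and MCE is read here as mitotic clonal expansion, the divisions that induced cells pass through. Day4, Day6 and Day8 are 4, 6 and 8 days after the stimuli, without a statement of whether those days run from the start or the end of the inducer treatment. For Control the labels state neither a time nor a treatment beyond that name. All groups come from 1 line with no genetic change given, and whether the replicates were separate cultures is not stated, so the p-values reflect no more than the spread among these libraries, which may be technical. The labels give neither the clock hour of harvest nor the time since the last change of medium, and each group holds 1 stage, so a change in the level of a rhythmic transcript and a shift in the phase of its rhythm cannot be told apart.

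In the clock, CLOCK and BMAL1 bind DNA as a pair at E-box sequences and switch on the Per, Cry, Nr1d1, Nr1d2 and Dbp genes. PER and CRY proteins enter the nucleus and inhibit that pair, while the REV-ERB receptors repress Arntl and Clock in a second loop in which ROR receptors act as the opposing activators. DBP and its relatives TEF and HLF activate genes through D-box sequences, and NFIL3 represses through those same sequences. In cultured fibroblasts, glucocorticoids, cAMP and serum are known to induce Per1 acutely and to bring the clocks of single cells into step. REV-ERB alpha is also known for its abundance in mature fat cells.

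Values are TPM, transcript abundances scaled for gene length and library total, which allow levels of different genes to be compared but keep no read depth. The depth is therefore unknown, and the precision rests on 3 libraries per group. The listed TPM summed to 869497 to 880273 per library. Most fat cell markers followed the labels: Adipoq was listed at 0 in Control, and 6 fat cell genes summed to 25286 to 27753 TPM at Day8, against 154 to 169 TPM in Control. The sum was 29137 to 31073 TPM at Day6. At Day8, 5 of the 6 were called higher than in Control (31.7% of all genes), without Pparg (35.4, 184 and 45.2 TPM). A list of 6 preadipocyte or fibroblast genes summed to 6008 to 9152 TPM at Day8, against 4713 to 4929 TPM in Control. Of these, 3 were called higher and 2 lower (31.7% and 39.7% of all genes). Of the other cell types checked, 5 endothelial genes summed to at most 1.72 TPM. Of 6 macrophage genes, Adgre1 and Ptprc were listed at 0 in 18 libraries, and the list summed to 7.23 to 10.5 TPM at MCE1 and 10.1 to 11.4 TPM at Day8, against 16.4 to 19.7 TPM in Control, most of it Cd14. Of its 4 tested genes, 3 were called lower at MCE1 and 3 or 4 at each later stage against Control, where 29.4% to 39.7% of all genes were. Of 4 muscle genes, Myod1, Myog and Ckm were listed at 0 in 18 libraries. The fourth, the intermediate filament gene Des, stood at 40.6 ± 3.85 TPM at Day8, against 3.10 ± 0.63 TPM in Control, and was called lower at MCE1 and higher from Day4 on. The part of these genes in the results was not tested. These are bulk samples, in which fewer cells of a type and less RNA per cell cannot be told apart. Changes below are differences of log2(TPM + 1), a scale on which weakly expressed genes appear to change less than they do, each with the SE of a limma fit over the 18 libraries and a p adjusted over the 12695 genes. A gene is called where that adjusted p is under 0.05. The comparisons with Control share the same 3 Control libraries and are not independent of each other.

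By the ratio of the highest to the lowest group mean, Dbp, Per3 and the REV-ERB genes moved most, and the activators Arntl and Clock least. Nr1d1, Nr1d2 and Dbp fell by about an order of magnitude at MCE1 and climbed again at later stages, Nr1d2 after MCE2. Per1 did the opposite, standing highest at MCE1 and lower afterwards. Per3, Cry2 and Dbp were highest at Day8, and for Clock and Arntl neighbouring groups in order of level overlapped throughout. The ratio of the highest to the lowest group mean was 88.7 for Dbp, 13.5 for Per3, 11.5 for Nr1d1, 9.69 for Nr1d2 and 6.67 for Per1. It was smaller for Per2 (4.56), Cry2 (3.64), Cry1 (2.01), Arntl (1.75) and Clock (1.25). An F test in limma across the 6 groups called 8 of the 10, without Clock (adjusted p = 0.921) and Arntl (adjusted p = 0.156). Of all genes tested, 87.6% were called by this F test, so being called is not particular to the clock genes.

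**Figure D1:**
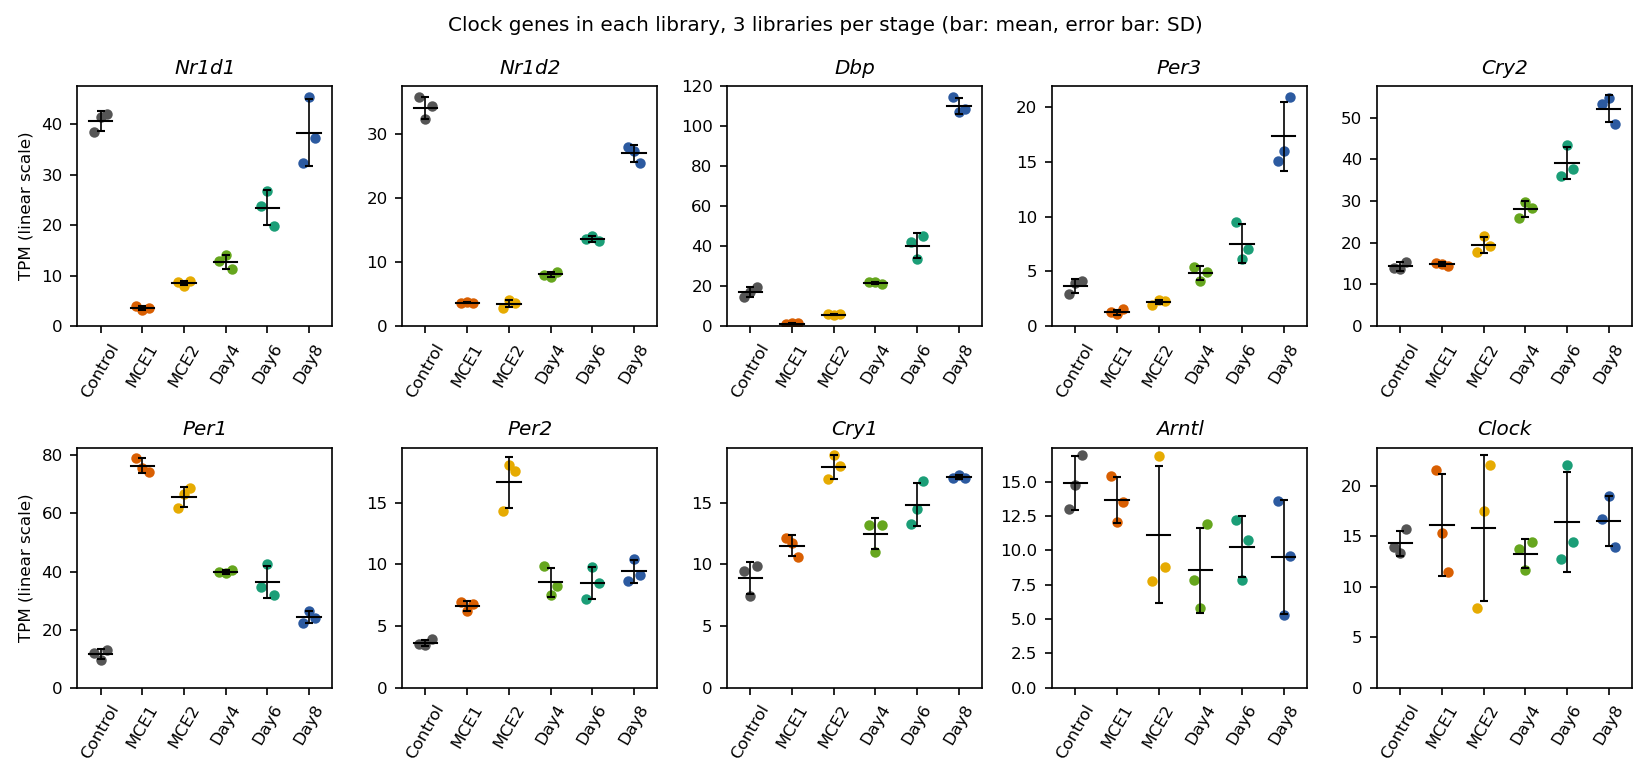
TPM of each of the 10 clock genes in all 18 libraries, 1 panel per gene on a linear scale with its own axis from 0; points are libraries, the horizontal bar is the group mean and the error bar the SD (n = 3). Nr1d1, Nr1d2 and Dbp dip at MCE1, Per1 peaks there, Per2 and Cry1 peak at MCE2, Per3, Cry2 and Dbp peak at Day8, and for Clock and Arntl neighbouring groups in order of level overlap.

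Against Control, the number of clock genes called higher exceeded the number called lower from Day4 on. At MCE1, 3 were called higher and 4 lower, where 22.0% and 29.4% of all genes tested were called higher and lower. At MCE2 the counts were 4 and 4 (23.4% and 39.1% of all genes). At Day4 they were 5 and 3 (29.7% and 39.3%), and median-ratio scaling of the libraries gave 6 and 2. At Day6 they were 6 and 2 (30.2% and 39.4%), and at Day8 6 and 1 (31.7% and 39.7%). The median log2 fold change of the 10 clock genes was 0.95 at Day8, where that of all genes was -0.11. At MCE1 the medians were -0.03 for the clock genes and -0.06 for all genes, a value that joins large changes in opposite directions. Median-ratio scaling raised the median of all genes by 0.09 at MCE1, 0.17 at MCE2, 0.13 at Day4 and at Day6, and 0.11 at Day8, and the fold changes below have to be read relative to that shift. It also moved the split of all called genes to 3622 higher and 3052 lower at MCE1, where the deposited values gave 2799 and 3727, and to 3939 and 3923 at MCE2, where they gave 2969 and 4964.

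Between neighbouring stages, 6 clock genes were called higher and 0 lower at MCE2 against MCE1, where 17.7% and 25.2% of all genes were called higher and lower. At an unadjusted p under 0.05 in the same limma fit, 0 were lower there too. At Day4 against MCE2, 5 were higher and 3 lower (29.6% and 22.0% of all genes). At Day6 against Day4, 5 were higher and 0 lower (14.5% and 11.2%), with 0 lower at an unadjusted p under 0.05. At Day8 against Day6, 5 were higher and 1 lower (10.1% and 11.6%), namely Per1. The genes called higher in both of these last steps were Nr1d1, Nr1d2, Dbp, Per3 and Cry2.

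**Figure D2:**
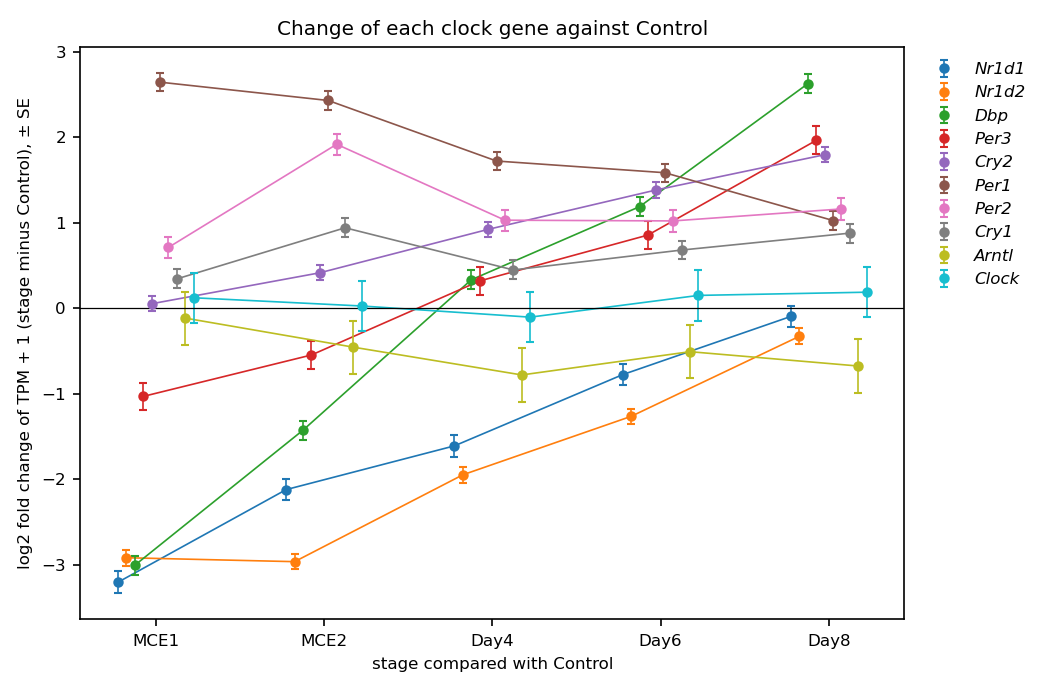
Log2 fold change of TPM + 1 of each clock gene against Control (y axis) at MCE1, MCE2, Day4, Day6 and Day8 (x axis); points are limma estimates and error bars their SE (n = 3 libraries per group, all set against the same 3 Control libraries). Dbp, Nr1d1 and Nr1d2 start near -3 and climb, Dbp ending at 2.63 and Nr1d2 at -0.33, while Per1 starts at 2.64 and ends at 1.03.

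The sequences just upstream of the transcription start sites are shown because the clock is defined by the short elements through which its factors act. RefSeq windows (build GRCm38.p6, 250 bases before to 50 after a start) were at hand for 9 of the 10 genes, with 13 windows in all and none for Per2. Both strands were searched for the E-box CACGTG, the variant CACGTT, the cAMP response element TGACGTCA, the D-box TTANGTAA and TNGGTCA. The last is a loose pattern for the element bound by ROR and REV-ERB receptors. It allows any base before GGTCA, so a match is not by itself a site of these receptors. Among all 32851 windows in the same table, 7.15% held CACGTG, 4.69% CACGTT, 1.79% TGACGTCA, 2.32% TTANGTAA and 10.97% TNGGTCA. The 5 upstream stretches below are given 5′ to 3′ on the strand of the gene, and capitals mark the matches. The Per3 stretch (chr4:151044666-151044915, minus strand) holds the D-box letters 205 and 158 bases before the start site and TNGGTCA, read on the other strand, 118 bases before it. That of Cry1 (chr10:85185055-85185304, minus strand) holds CACGTG at 60 bases and the variant at 79 bases before the start. That of Per1 (chr11:69098699-69098948, plus strand) holds CACGTG at 166 bases, that of Nr1d1 (chr11:98775378-98775627, minus strand) the variant at 28 bases, and that of Arntl (chr7:113207215-113207464, plus strand) TNGGTCA at 200 and 181 bases. Arntl has a second, overlapping window, which holds the same 2 matches and TNGGTCA once more, as TAGGTCA, 31 bases after its own start. The second window of Per1 holds none of the 5 motifs.
Per3: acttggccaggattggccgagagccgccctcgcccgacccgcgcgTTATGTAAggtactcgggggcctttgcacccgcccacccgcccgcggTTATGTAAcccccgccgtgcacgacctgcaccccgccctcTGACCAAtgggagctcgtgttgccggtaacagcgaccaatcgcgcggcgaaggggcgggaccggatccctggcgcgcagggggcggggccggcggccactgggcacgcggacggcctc
Cry1: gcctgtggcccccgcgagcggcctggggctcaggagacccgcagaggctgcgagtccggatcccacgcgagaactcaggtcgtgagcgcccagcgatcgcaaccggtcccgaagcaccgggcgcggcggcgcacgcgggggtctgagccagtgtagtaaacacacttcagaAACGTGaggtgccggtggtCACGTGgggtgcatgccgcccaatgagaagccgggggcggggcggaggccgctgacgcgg
Per1: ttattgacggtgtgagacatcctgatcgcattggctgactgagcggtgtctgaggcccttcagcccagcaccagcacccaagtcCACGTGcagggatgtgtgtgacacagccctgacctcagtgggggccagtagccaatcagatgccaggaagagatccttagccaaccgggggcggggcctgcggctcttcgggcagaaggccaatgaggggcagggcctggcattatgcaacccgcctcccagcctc
Nr1d1: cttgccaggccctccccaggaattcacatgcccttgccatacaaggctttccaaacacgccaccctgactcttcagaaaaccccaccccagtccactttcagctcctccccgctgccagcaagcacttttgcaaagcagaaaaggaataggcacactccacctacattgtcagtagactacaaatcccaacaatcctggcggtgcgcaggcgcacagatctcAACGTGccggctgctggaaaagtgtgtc
Arntl: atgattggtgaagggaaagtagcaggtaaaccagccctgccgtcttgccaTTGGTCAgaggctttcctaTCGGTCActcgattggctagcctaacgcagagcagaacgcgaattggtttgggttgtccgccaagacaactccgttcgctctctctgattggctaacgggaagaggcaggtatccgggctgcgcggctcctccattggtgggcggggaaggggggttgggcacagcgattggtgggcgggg
Per3 was the single clock gene with a D-box match in these windows, and no window of a clock gene held TGACGTCA. The Cry2 window held the variant E-box 166 bases and TNGGTCA 133 bases before the start, and those of Clock, Dbp and Nr1d2 held none of the 5 motifs. A match is a description of the letters in this window, and a missing match says nothing of sites elsewhere.

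The REV-ERB genes, the transcriptional repressors of the second loop, fell together and recovered at different times. Nr1d1 (mm9, chromosome 11, 98629246 to 98636691) read 38.4, 41.4 and 42.0 TPM in Control, 3.89, 3.14 and 3.52 TPM at MCE1 and 8.77, 8.03 and 8.88 TPM at MCE2. It read 12.8, 14.0 and 11.2 TPM at Day4, 23.8, 26.7 and 19.9 TPM at Day6 and 32.3, 45.4 and 37.1 TPM at Day8. Every MCE1, MCE2, Day4 and Day6 library lay below every Control library, and the Day8 libraries spread across the Control range. Its mean of 3.52 ± 0.37 TPM at MCE1 against 40.6 ± 1.90 TPM in Control (SD, n = 3 each) gave a log2 fold change of -3.21 (SE 0.13, adjusted p = 6.32e-12). Nr1d1 was called higher in each later step, by 1.08 at MCE2 against MCE1, 0.51 at Day4 against MCE2, 0.83 at Day6 against Day4 and 0.68 at Day8 against Day6. At Day8 it did not differ from Control beyond the spread (log2 fold change -0.10, adjusted p = 0.513, SE 0.13), and the sign of that value turned under both rescalings of the libraries.

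Nr1d2 (chromosome 14, 19036570 to 19071620) reached the same depth but stayed there longer. Its Control libraries read 35.8, 32.3 and 34.4 TPM, those of MCE1 3.63, 3.71 and 3.60 TPM and those of MCE2 2.91, 4.06 and 3.62 TPM. The Day4 libraries read 8.07, 7.74 and 8.53 TPM, those of Day6 13.6, 14.1 and 13.3 TPM and those of Day8 27.99, 27.5 and 25.6 TPM. All 15 libraries of the later groups were below the lowest Control library, and MCE1 and MCE2 overlapped. The log2 fold change against Control was -2.92 at MCE1 (SE 0.09, adjusted p = 4.73e-13) and -2.96 at MCE2, and between MCE2 and MCE1 it was -0.05 (adjusted p = 0.74). From MCE2 on it was called higher at each step, by 1.02, 0.68 and 0.94. At Day8 it was still lower than in Control by the limma test, 27.0 ± 1.26 against 34.2 ± 1.75 TPM (log2 fold change -0.33, adjusted p = 0.00453, SE 0.09). That value was -0.20 after median-ratio scaling and -0.18 after quantile normalization (adjusted p = 0.0293).

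The span of Nr1d1 shares 1075 bases of its 7446 with Thra, the thyroid hormone receptor alpha gene (98629246 to 98630320), which lies on the opposite strand in the GENCODE M21 annotation. The library kit named in the labels does not mark strand, so reads in the shared stretch cannot be told apart. Thra stood at 117 ± 4.34 TPM at MCE1 and at 59.9 ± 5.51 TPM in Control (log2 fold change 0.96, adjusted p = 1.26e-09), opposite in direction to Nr1d1. The Dbp span likewise shares 741 of 4957 bases with the sphingosine kinase gene Sphk2, which was not called at MCE1 (14.0 ± 1.77 against 13.4 ± 2.41 TPM in Control). At Day8, where Dbp was highest, Sphk2 stood at 23.1 ± 2.96 TPM (log2 fold change against Control 0.75, adjusted p = 0.00095). Cry2 overlaps the model D930015M05Rik, whose group means were at most 1.65 TPM.

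Dbp, the D-box activator that reports the output of the clock, had the widest range of the 10. Dbp (chromosome 7, 52960617 to 52965573) read 14.8, 16.9 and 19.5 TPM in Control, 1.02, 1.35 and 1.36 TPM at MCE1 and 5.87, 5.36 and 5.84 TPM at MCE2. It read 21.9, 22.2 and 20.9 TPM at Day4, 42.2, 33.4 and 45.1 TPM at Day6 and 114, 107 and 109 TPM at Day8. No 2 neighbouring groups in the order MCE1, MCE2, Control, Day4, Day6, Day8 overlapped. At MCE1 it fell to 1.24 ± 0.19 TPM, against 17.1 ± 2.38 TPM in Control (log2 fold change -3.01, adjusted p = 3.56e-12, SE 0.11). At Day8 it stood at 110 ± 3.98 TPM, 6.44 times the Control mean (log2 fold change 2.63, adjusted p = 4.58e-12, SE 0.11). The small rise at Day4 (0.33, adjusted p = 0.0159) was no longer called without Control replicate 1 (0.24, adjusted p = 0.0912), and was 0.55 after quantile normalization.

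Dbp and Nr1d1 both fell at MCE1 and parted later. Within each library, Dbp over Nr1d1 was 3.55, 2.35 and 2.92 at Day8, against 0.38, 0.41 and 0.47 in Control. The groups did not overlap, and the mean log2 ratio differed by 2.79 (exact permutation test, 2-sided p = 0.1, the smallest that 3 against 3 libraries allow). At MCE1 this ratio was 0.26, 0.43 and 0.38, overlapping the Control values (exact permutation p = 0.5). Both genes are targets of the CLOCK and BMAL1 pair, and a ratio within libraries does not depend on the scaling between them.

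Per3, the period gene that is dispensable for rhythms in most mouse tissues, followed Dbp more closely than it followed Per1 or Per2. Per3 (chromosome 4, 150377764 to 150418774) read 2.95, 3.99 and 4.15 TPM in Control, 1.25, 1.08 and 1.53 TPM at MCE1 and 1.97, 2.35 and 2.27 TPM at MCE2. It read 5.45, 4.13 and 4.96 TPM at Day4, 9.51, 6.15 and 7.01 TPM at Day6 and 15.1, 16.0 and 21.0 TPM at Day8. Control and Day4 overlapped, and the other neighbours in order of level did not. At MCE1 it fell to 1.29 ± 0.23 TPM, against 3.70 ± 0.65 TPM in Control (log2 fold change -1.03, adjusted p = 5.96e-05, SE 0.16). At Day8 it was 4.70 times the Control mean (log2 fold change 1.96, adjusted p = 1.86e-08, SE 0.16). The lower level at MCE2 (-0.55, adjusted p = 0.00821) was not called after median-ratio scaling (-0.40, adjusted p = 0.0532) or quantile normalization (-0.26, adjusted p = 0.201). The call at MCE2 against MCE1 (0.48) was lost without MCE1 replicate 1 or 2 or MCE2 replicate 2 or 3 (0.42 to 0.48), and the value was 0.73 with a pseudocount of 0.1 TPM. That at Day6 against Day4 (0.54) was lost without Day4 replicate 2 (0.45) or Day6 replicate 1 (0.38) and in a fit on those 6 libraries alone (adjusted p = 0.0807). Pearson's r of log2(TPM + 1) over the 18 libraries was 0.96 between Per3 and Dbp, -0.50 between Per3 and Per1 and 0.05 between Per3 and Per2, as a description, since libraries of a group share a stage.

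Per1, the period gene that answers directly to glucocorticoids and cAMP, was the clock gene that rose most at MCE1. Per1 (chromosome 11, 68912451 to 68923459) read 11.8, 9.56 and 13.0 TPM in Control, 79.3, 75.7 and 74.4 TPM at MCE1 and 62.0, 66.6 and 68.7 TPM at MCE2. It read 39.7, 39.4 and 40.4 TPM at Day4, 34.5, 42.7 and 32.0 TPM at Day6 and 22.4, 26.5 and 23.9 TPM at Day8. Every library after Control was above the 3 Control libraries, and Day4 and Day6 overlapped. The mean of 76.4 ± 2.53 TPM at MCE1 was 6.67 times the Control mean of 11.5 ± 1.77 TPM (log2 fold change 2.64, adjusted p = 8.48e-12, SE 0.11). It was called lower at Day4 than at MCE2 (-0.71) and at Day8 than at Day6 (-0.56, adjusted p = 0.00159), and at Day8 it was still 2.12 times Control (1.03, adjusted p = 2.97e-07). Per1 over Per3 within a library was 60.6 ± 10.9 at MCE1, against 3.18 ± 0.80 in Control, and 1.43 ± 0.26 at Day8.

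Known targets of the inducers moved over the same stages. Of 4 tested glucocorticoid receptor targets, 4 were called higher at MCE1, where 22.0% of all genes were. Their list of 5, in which Sgk1 was listed at 0 in 18 libraries, summed to 747 to 765 TPM at MCE1, against 90.1 to 96.1 TPM in Control. Fkbp5, a chaperone partner of that receptor, averaged 50.9, 436, 611, 557, 108 and 38.0 TPM from Control through Day8. Tsc22d3 (GILZ), another direct target, was highest at Day4 with 384 TPM, and the phosphatase gene Dusp1 at MCE1 with 132 TPM. Per1 was still 2.12 times Control at Day8, where Fkbp5 was lower than in Control (log2 fold change -0.41, adjusted p = 0.000256). The 3 other tested targets, Tsc22d3, Dusp1 and Zbtb16, were called higher than in Control at Day8, where 31.7% of all genes were. Nr4a1, a nuclear receptor gene induced by cAMP, had 63.7 TPM at MCE1 and 15.6 TPM in Control. Nr4a2, of the same list, went the other way, with 2.65, 4.29 and 2.36 TPM at MCE1 and 5.30, 4.66 and 6.00 TPM in Control. Of 5 tested cAMP-responsive genes, 2 were called higher and 1 lower at MCE1 (22.0% and 29.4% of all genes), a split of 2 and 0 after quantile normalization. The 4 genes of dividing cells (Mki67, Top2a, Ccnb1 and Pcna) summed to 1697 to 1802 TPM at MCE1, against 1058 to 1124 TPM in Control. At MCE2 they summed to 631 to 710 TPM, below Control, and 3 of the 4 were called lower, where 39.1% of all genes were. The part of the inducers and of cell division in the clock gene changes was not tested.

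**Figure D3:**
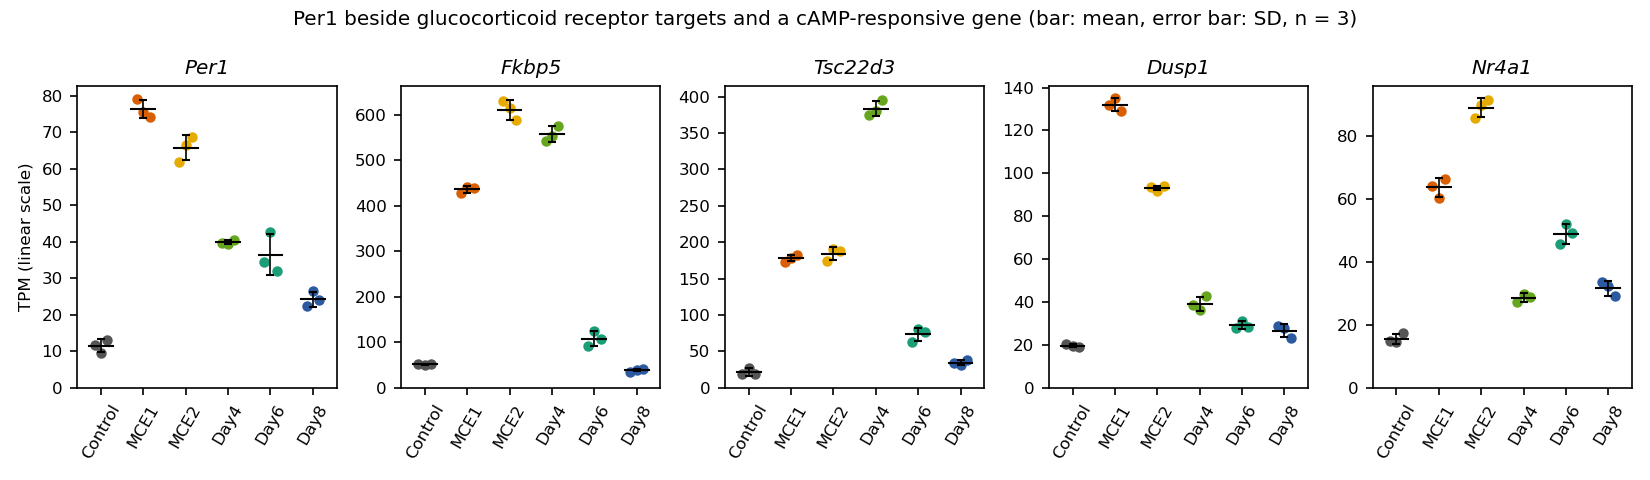
TPM of Per1 beside the glucocorticoid receptor targets Fkbp5, Tsc22d3 and Dusp1 and the cAMP-responsive gene Nr4a1, by group, on linear scales from 0; points are libraries, horizontal bars means and error bars SD (n = 3). Per1 and Dusp1 are highest at MCE1, Fkbp5 and Nr4a1 at MCE2 and Tsc22d3 at Day4, and at Day8 Per1 averages 24.3 TPM, above its 11.5 TPM in Control.

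Per2 and Cry1, a period and a cryptochrome gene whose proteins form the repressive complex, both peaked at MCE2. Per2 (chromosome 1, 93312559 to 93355905) read 3.54, 3.48 and 3.94 TPM in Control, 6.92, 6.19 and 6.76 TPM at MCE1 and 14.3, 18.1 and 17.6 TPM at MCE2. It read 9.87, 7.55 and 8.22 TPM at Day4, 7.23, 9.76 and 8.51 TPM at Day6 and 8.69, 10.5 and 9.15 TPM at Day8. The MCE2 libraries lay above all others, and Day4, Day6 and Day8 overlapped at a level above Control and MCE1. Per2 rose at MCE1 (log2 fold change 0.71, adjusted p = 0.000165, SE 0.12), rose further at MCE2 against MCE1 (1.21, adjusted p = 1.01e-06) and fell at Day4 against MCE2 (-0.89, adjusted p = 2.12e-05). Per2 at MCE2 averaged 16.7 ± 2.06 TPM, 4.56 times the Control mean of 3.66 ± 0.25 TPM, whereas Per1 was highest at MCE1.

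Cry1 (chromosome 10, 84594445 to 84647799) was also highest at MCE2, within a narrower range. The Per2 groups of Day4, Day6 and Day8 overlapped, and the Cry1 means of these days were 12.5, 14.8 and 17.1 TPM. Neither of these Cry1 steps was called in limma. The log2 fold change was 0.23 at Day6 against Day4 (adjusted p = 0.14) and 0.20 at Day8 against Day6 (adjusted p = 0.227). Cry1 read 9.43, 7.40 and 9.87 TPM in Control, 12.2, 11.8 and 10.6 TPM at MCE1 and 16.9, 18.9 and 17.95 TPM at MCE2. It read 13.2, 11.01 and 13.2 TPM at Day4, 13.3, 14.5 and 16.7 TPM at Day6 and 17.0, 17.3 and 17.0 TPM at Day8. Each later library was above the 3 Control libraries, and the Day8 libraries lay within the MCE2 range. The log2 fold change against Control was 0.94 at MCE2 (SE 0.11, adjusted p = 1.69e-06), 0.45 at Day4 (adjusted p = 0.00195) and 0.88 at Day8 (adjusted p = 2.61e-06). The value of 0.34 at MCE1 (adjusted p = 0.0163) was not called without Control replicate 2 (0.23, adjusted p = 0.103) or MCE1 replicate 1 (0.30, adjusted p = 0.0629). Over the 18 libraries, r between Per2 and Cry1 was 0.89.

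Cry2, the other cryptochrome, rose in steps to the end of the series. Cry2 (chromosome 2, 92243804 to 92274226) read 13.9, 13.6 and 15.5 TPM in Control, 15.2, 14.997 and 14.4 TPM at MCE1 and 17.7, 21.5 and 19.1 TPM at MCE2. It read 26.0, 29.7 and 28.4 TPM at Day4, 36.0, 43.3 and 37.8 TPM at Day6 and 53.4, 54.7 and 48.5 TPM at Day8. Control and MCE1 overlapped, and each later group lay wholly above the group before it. At MCE1 it was not called (log2 fold change 0.05, adjusted p = 0.665, SE 0.09). At Day8 it stood at 52.2 ± 3.29 TPM, against 14.3 ± 0.997 TPM in Control (log2 fold change 1.80, adjusted p = 2.71e-11, SE 0.09). Cry2 rose by 0.36 at MCE2 against MCE1, 0.51 at Day4 against MCE2, 0.46 at Day6 against Day4 and 0.41 at Day8 against Day6, each called. The value at MCE1 was called after quantile normalization (0.20, adjusted p = 0.0183). The 2 cryptochromes stood at 17.1 ± 0.15 TPM (Cry1) and 52.2 TPM (Cry2) at Day8, and at 8.90 ± 1.32 and 14.3 TPM in Control.

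Clock and Arntl, the genes of the activator pair, showed spread between replicates that exceeded most differences between groups. Arntl (chromosome 7, 120350979 to 120457640) read 13.0, 14.8 and 16.9 TPM in Control, 15.4, 12.1 and 13.5 TPM at MCE1 and 7.75, 16.9 and 8.82 TPM at MCE2. It read 7.84, 5.84 and 11.95 TPM at Day4, 12.2, 7.88 and 10.7 TPM at Day6 and 13.6, 5.29 and 9.57 TPM at Day8. All neighbouring groups overlapped, and the coefficient of variation within a group reached 44.8%. A single call was made, at Day4 against Control (8.54 ± 3.11 against 14.9 ± 1.95 TPM, log2 fold change -0.78, adjusted p = 0.0361, SE 0.31). That call was lost after median-ratio scaling (-0.65, adjusted p = 0.0759) and quantile normalization (-0.62, adjusted p = 0.0953), with no filter on low values (adjusted p = 0.0503), and without Control replicate 2 or 3 or Day4 replicate 1 or 2. At MCE2 the value was -0.46 (adjusted p = 0.218), and it was called without MCE2 replicate 2 (-0.77, adjusted p = 0.0409). At Day8 the value was -0.68 (adjusted p = 0.0636), and it was called without Day8 replicate 1 (-0.96, adjusted p = 0.0149). At MCE1, where both REV-ERB genes were at 3.52 and 3.65 TPM, Arntl was at -0.12 (SE 0.31, adjusted p = 0.795). The value was 0.04 after quantile normalization, and a link between these levels was not tested.

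Clock (chromosome 5, 76638893 to 76733817) read 14.0, 13.3 and 15.7 TPM in Control, 21.6, 15.4 and 11.5 TPM at MCE1 and 7.87, 17.5 and 22.1 TPM at MCE2. It read 13.7, 11.7 and 14.5 TPM at Day4, 12.7, 22.1 and 14.5 TPM at Day6 and 16.7, 19.0 and 14.0 TPM at Day8. No group stood apart, and no comparison called Clock, with log2 fold changes against Control of -0.10 to 0.19 and an SE of 0.29. At that SE, a change of the size of Cry1 at MCE1 (0.34) would not be detectable. The end listed for Clock differed between libraries. It was 76732527 in 4 libraries (7.87 to 13.7 TPM), 76733573 in 3 (14.5 to 19.0 TPM) and 76733817 in 11 (11.5 to 22.1 TPM), and the part of that difference in the spread of Clock was not tested.

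Among the further genes of the pathway, the D-box repressor gene Nfil3 rose most at MCE1. NFIL3 represses through the elements at which DBP activates. Nfil3 stood at 112 ± 8.47 TPM at MCE1, against 13.7 ± 1.04 TPM in Control (log2 fold change 2.95, adjusted p = 4.56e-14, SE 0.07), and at 36.5 ± 1.15 TPM at Day8. Within each library, Nfil3 over Dbp was 0.99, 0.82 and 0.64 in Control, 119, 82.0 and 77.2 at MCE1 and 16.5, 19.5 and 19.2 at MCE2. It was 1.78, 1.90 and 1.79 at Day4, 0.91, 1.15 and 0.79 at Day6 and 0.33, 0.33 and 0.34 at Day8. The ratio of transcripts was above that of Control in all MCE1 libraries and below it in all Day8 libraries (exact permutation test, 2-sided p = 0.1 in each case, the smallest that 3 against 3 allow). Tef, the related activator, read 0, 0.17 and 0.19 TPM at MCE1, against 1.63, 1.99 and 3.92 TPM in Control (-1.60, adjusted p = 0.0135), a call lost without Control replicate 3 (adjusted p = 0.0636), with a value of -3.62 at a pseudocount of 0.1 TPM. Tef was highest at Day4, with 26.2, 9.65 and 17.3 TPM, and Hlf did not pass the filter.

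**Figure D4:**
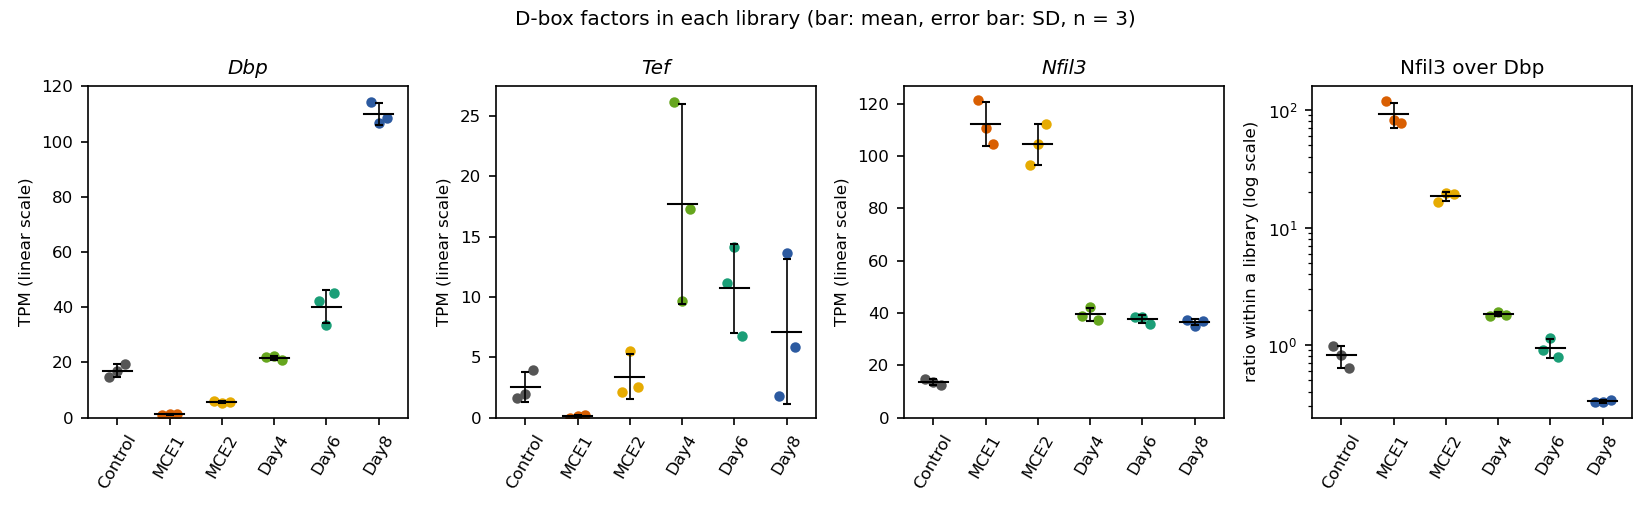
TPM of the D-box activators Dbp and Tef and of the repressor gene Nfil3 by group (linear scales from 0), and Nfil3 over Dbp within each library (log scale); points are libraries, horizontal bars means and error bars SD (n = 3). The ratio is near 1 in Control, 77.2 to 119 at MCE1 and 0.33 to 0.34 at Day8, as Dbp climbs to 110 TPM while Nfil3 stays near 37 TPM from Day4 on.

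The 4 pathway lists hold 30 genes besides the 10, of which 26 were tested. Of the 26, 3 were called higher and 7 lower at MCE1 against Control, where 22.0% and 29.4% of all genes were called higher and lower. The split became 6 and 5 after median-ratio scaling and 4 and 7 after quantile normalization. The counts were 6 and 9 at MCE2 (10 and 6 after median-ratio scaling), 8 and 10 at Day4 (10 and 7), 9 and 7 at Day6 (10 and 5) and 11 and 6 at Day8 (13 and 5), with the shares of all genes as given above for the clock genes. Quantile normalization gave 7 and 7 at MCE2. The lower calls of Timeless, Nono, Cdkn1a and Ppargc1a at MCE2 were each lost under some alternative. The share of the 26 called lower at MCE1 was near that of all genes. The genes called higher at MCE1 were Nfil3, Usp2, a deubiquitinase of clock proteins, and Nampt, the rate-limiting enzyme of NAD salvage. Nampt stood at 229 ± 20.0 TPM at Day8, against 30.3 ± 0.83 TPM in Control (2.87, adjusted p = 1.35e-14). Those called lower were Arntl2, Bhlhe40, Bhlhe41, Tef, Sirt1, Cdkn1a and Ppargc1a, of which the calls of Bhlhe40 and Sirt1 were lost after median-ratio scaling, that of Tef without Control replicate 3 and that of Cdkn1a with a pseudocount of 0.1 TPM and without MCE1 replicate 2 or Control replicate 1. Sirt1 was also lost after quantile normalization (-0.22, adjusted p = 0.182) and without Control replicate 1 or 3 or MCE1 replicate 1 or 2.

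Bhlhe40 (DEC1), a repressor that competes at E-boxes, stood at 187 ± 13.3 TPM at Day8, against 67.5 ± 4.19 TPM in Control (1.45, adjusted p = 3.98e-11). Its paralogue Bhlhe41 (DEC2) fell with the REV-ERB genes at MCE1, to 2.55 ± 0.91 TPM, against 10.5 ± 1.30 TPM in Control (-1.72, adjusted p = 3.96e-05), and was at 16.5 ± 5.57 TPM at Day8 (0.56, adjusted p = 0.0672).

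The next list holds genes that set the stability of PER and CRY. Of these 10 kinases, phosphatases and ubiquitin genes, 1 was called higher and 0 lower at MCE1, where 22.0% and 29.4% of all genes were called higher and lower. At an unadjusted p under 0.05 in the same limma fit, 2 were higher and 2 lower there. At Day8, 4 were higher and 1 lower, where the shares of all genes were 31.7% and 39.7%, so the share called higher was near that of all genes. The higher calls of Gsk3b (0.27) and Csnk1e (0.47) at Day8 were each lost in some fits that left out a single library. Csnk1d, the casein kinase gene that phosphorylates PER, had log2 fold changes of 0.02 at MCE1 and -0.10 at Day8 (SE 0.07), neither called. Among partners and outputs, Nono, a PER-binding protein gene, fell to 180 ± 22.3 TPM at Day8, against 465 ± 14.3 TPM in Control (-1.37, adjusted p = 3.77e-11). Sirt1, the NAD-dependent deacetylase that acts on BMAL1 and PER2, fell to 4.01 ± 0.47 TPM at Day8, against 12.2 ± 1.93 TPM in Control (-1.39, adjusted p = 3.75e-07). Pck1, an enzyme gene of glyceride and glucose synthesis, was listed at 0 in the 9 libraries of Control, MCE1 and MCE2 and averaged 109 ± 26.9 TPM at Day8.

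**Figure D5:**
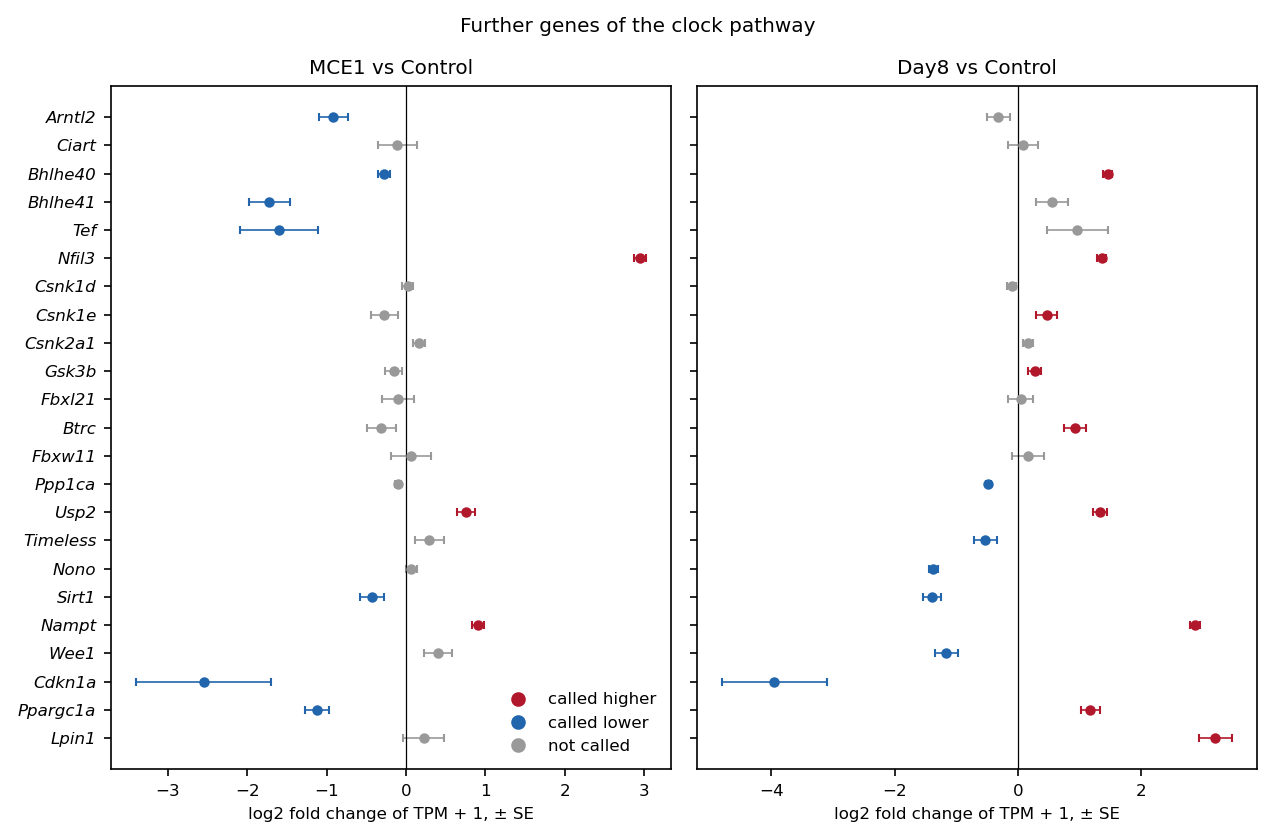
Log2 fold change of TPM + 1 against Control at MCE1 (left) and Day8 (right) for 23 genes of the 4 pathway lists, without Pck1, which is listed at 0 in Control; points are limma estimates, error bars SE (n = 3 libraries per group), and colours give the call at an adjusted p under 0.05. Nfil3 stands at 2.95 at MCE1, and Nampt at 2.87 at Day8.

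The genes most like each clock gene were sought by Pearson's r of log2(TPM + 1) over the 18 libraries among 9000 tested genes that averaged at least 10 TPM in some group. These libraries hold 6 stages with 3 replicates each, so r mostly reflects 6 points and is given without a test. Dbp and Per3 shared their nearest gene, Nupr1, a stress-responsive chromatin regulator (r = 0.99 with Dbp and 0.98 with Per3). Nr1d1 was most like Mapk3 (ERK1, 0.99) and Msmo1, an enzyme of cholesterol synthesis (0.98), and Nr1d2 most like the amino acid transporter Slc1a4 (0.99) and Rragc, a GTPase of nutrient sensing (0.98). Per1 was most like Zfp385a (0.99) and Gpr155 (0.98), Per2 like Plxnd1 (0.96) and Notch1 (0.95), Cry1 like Lama4 (0.92) and Cry2 like Ppp2r5a (0.99). For Arntl and Clock the highest values were 0.76 (Mtmr12) and 0.68 (Pdpk1). Among pairs of clock genes, r was 0.94 for Nr1d1 with Nr1d2, and -0.94 for Per1 with Nr1d2.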

How the data were processed

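Polyadenylated RNA of 3T3-L1 cells was measured in 18 libraries. Each library has a deposited table with a TPM value for every listed gene and its position. Per the submitters' processing notes, the authors used FastQC, cutadapt, HISAT2, StringTie and the mm9 build to make these TPM values. Versions, the gene annotation, filters on listed genes and the use of strand are not given in the sources used here. TPM keep no depth, so the precision rests on the spread between libraries.

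Groups were taken from the sample titles. Of 25209 listed genes, 12 that Control replicate 1 lists at another locus were left out, and 12695 genes that reached 1 TPM in 3 or more libraries were tested. All 10 clock genes were kept. Log2(TPM + 1), a pseudocount of 1 TPM, entered a linear model in limma 3.58.1 (R 4.3.3) with 1 mean per group over 18 libraries, moderated with the robust and trend settings on 12 residual degrees of freedom, 2-sided, for 9 comparisons and an F test. Benjamini-Hochberg adjustment ran over all genes tested, with calls at an adjusted p under 0.05. Ratios within libraries were compared with exact permutation tests in scipy 1.17.1. The fit was tested on simulated data. Python 3.11.15 with numpy 2.4.6, pandas 2.3.3 and matplotlib 3.10.9 served for tables and figures.

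The clock genes, the pathway and marker lists and the tests were chosen with earlier results of these data known. All 10 clock genes could be named, with the genes of the lists, genes overlapping a clock gene and the 2 genes most like each. In the pathway lists, 2 tested genes count in the totals and are not reported here by name or drawn. Promoter sequences come from RefSeq (GRCm38.p6), and mm9 positions from the deposited tables, with no conversion between the builds.

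The alternatives were median-ratio scaling, quantile normalization, a pseudocount of 0.1 TPM, no filter, a filter of 5 TPM, the replicate number as a block, the 6 libraries compared alone and leaving out each library of the 2 groups compared. Added after seeing the data were fits without 867 genes whose listed span differs between libraries, Clock among them, and without 58 genes at 0 in 1 library whose other replicates stand at 5 TPM or more.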

Additional observations from a re-analysis of the deposited data

How the results depend on the processing

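Of 90 fold changes of a clock gene in a comparison, 63 were called, and 57 of these stayed called in the same direction under up to 15 alternatives each. The 6 others (Cry1 at MCE1, Per3 and Dbp and Arntl in comparisons with Control, and the Per3 steps to MCE2 and Day6) are given in the report with the setting that ended the call. Calls gained were Per3 at Day4 against Control after median-ratio scaling (0.43), Arntl at Day6 against Control (-0.51) and Per1 at MCE2 against MCE1 (-0.21) with the 6 libraries alone, beside those in the report. Every count of clock genes called stayed within 1.5 times its value. Fitted on those 6 libraries alone, Day8 against Day6 called 1072 of all genes, where the fit on 18 libraries called 2761; fewer libraries entered the fit. Signs turned for values that were not called, apart from Ppp1ca at Day4. After quantile normalization these were Arntl at MCE1 (0.0435), Clock at Day4 (0.10) and Nr1d1 at Day8 (0.0454) against Control, and Clock (0.0312) and Nr1d2 (0.0401) at MCE2 against MCE1. After median-ratio scaling they were Clock at Day4 (0.0302) and Nr1d1 at Day8 (0.0303) against Control, Nr1d2 at MCE2 against MCE1 (0.0157) and Ppp1ca at Day4 against Control (0.0393, called lower at -0.11 as deposited). With single libraries left out, Clock ranged from -0.10 to 0.33 at MCE1, -0.26 to 0.43 at MCE2 and -0.0715 to 0.30 at Day6 against Control, and Nr1d1 from -0.22 to 0.0175 at Day8 against Control. At MCE2 against MCE1, Clock ranged from -0.38 to 0.31 and Nr1d2 from -0.13 to 0.0567. Clock ranged from -0.54 to 0.15 at Day4 against MCE2, Per2 from -0.10 to 0.0908 at Day6 against Day4, and at Day8 against Day6 Clock from -0.12 to 0.26 and Arntl from -0.45 to 0.16. The cause of these turns was not tested. The replicate numbers do not pair the samples, since same-number residuals correlated at -0.07 to 0.09 and 4 of 18 libraries correlated best with their own number. With the replicate block the counts of clock genes called were 7, 8, 8, 8 and 7 against Control. Of 85 calls against Control among the pathway genes, Thra and Sphk2, 66 were never lost under the alternatives. Depth is unknown, so counting error at low levels such as Dbp at MCE1 (1.02 to 1.36 TPM) and Per3 at MCE1 cannot be told apart from other spread.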
